A study of Mus musculus with 14 samples.

Results

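The Nkx patterning genes described here are 7 homeobox genes, Nkx1-2, Nkx2-1, Nkx2-2, Nkx2-4, Nkx2-9, Nkx6-1 and Nkx6-2. For each gene the 10 kb bin of the mouse genome (mm10) that holds its transcription start site was located, and every called chromatin contact with an end in that bin was taken. All 7 genes could be placed, in 7 different bins, and 554 of the 334760 contacts in 8 deposited lists had an end in one of them. No measured value entered the rule that picked these bins and contacts, but the genes were chosen with earlier results of these data known.

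The study measured contacts of promoters by PLAC-seq, in which chromatin ends are ligated by proximity and fragments carrying H3K4me3, a histone mark of promoters, are then immunoprecipitated. The cells were F123 mouse embryonic stem cells (ESCs) whose titles name a CTCF-AID allele, that is, CTCF fused to a degron tag through which auxin causes its breakdown. All 4 groups carried this allele. They were control ESCs (0 h with auxin), auxin ESCs (48 h), and neural precursor cells (NPCs) on day 4 of differentiation carried out without auxin (control NPCs) or with it (auxin NPCs), named in the plots as ESC control, ESC auxin, NPC control and NPC auxin. Each group had 2 samples by title, but 1 list of contacts (loops) from each of 2 callers, MAPS and FitHiChIP. With 1 list per condition there was no spread between replicates and no test, and no p-value is given. The 95% intervals are exact and cover counting error only. Whether the lines were single clones, and how much CTCF remained, is not stated in the labels, and 6 samples of 3 groups with dCas9 were not analysed here. MAPS listed 56714 loops in control ESCs, 27610 in auxin ESCs, 82861 in control NPCs and 41667 in auxin NPCs. A pair of bins that was not listed fell short of a caller's thresholds, which is not the same as having no contact.

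Homeobox genes of the NK families encode transcription factors that divide the embryo into territories. In the ventral neural tube, Sonic hedgehog from the notochord and floor plate switches on Nkx2-2, Nkx2-9, Nkx6-1 and Nkx6-2 in nested domains, and cross-repression between these factors and dorsal ones sets the borders of progenitor zones. CTCF holds the ends of many chromatin loops and domain borders, which places enhancers near some promoters and away from others.

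The start sites were taken from RefSeq on GRCm38.p6, the assembly behind mm10. All 7 genes are read from the minus strand, so that the downstream side (beyond the gene's 3′ end) has the lower coordinates. Nkx6-1 starts on chromosome 5 at 101664711, Nkx6-2 and Nkx1-2 on chromosome 7 at 139582797 and 132599637, Nkx2-2 and Nkx2-4 on chromosome 2 at 147186402 and 147085345, and Nkx2-1 and Nkx2-9 on chromosome 12 at 56536908 and 56613284. The bins of Nkx2-1 and Nkx2-9 lie 80 kb apart and those of Nkx2-4 and Nkx2-2 lie 100 kb apart. Several bins hold a further start site, Nkx2-2os and 6430503K07Rik beside Nkx2-2, Gm34889 beside Nkx2-4, Gm33031 beside Nkx6-2 and Gm26973 beside Nkx2-1 and Nkx2-9. The RefSeq record of Nkx2-2 also extends to 147195434, in the next bin. A loop of a shared bin cannot be assigned to one of its start sites.

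The 250 bases before the start site are shown for the 3 genes on which the loop results below turn: Nkx6-1, with the most loops, Nkx2-2, which contacts other developmental regulators, and Nkx6-2, whose loop count differed most between the auxin lists. They are written 5′ to 3′ on the gene's own minus strand (GRCm38.p6), at chr5:101664712-101664961 for Nkx6-1, chr2:147186403-147186652 for Nkx2-2 and chr7:139582798-139583047 for Nkx6-2. Capitals mark CAAGTG or its reverse complement CACTTG, the core bound by NK2-class factors, and CCAAT or ATTGG, the CCAAT box.
Nkx6-1: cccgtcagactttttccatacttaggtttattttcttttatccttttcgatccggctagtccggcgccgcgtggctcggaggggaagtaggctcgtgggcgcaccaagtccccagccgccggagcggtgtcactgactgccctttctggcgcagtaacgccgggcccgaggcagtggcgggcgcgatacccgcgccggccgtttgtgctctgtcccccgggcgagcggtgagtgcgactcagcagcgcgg
Nkx2-2: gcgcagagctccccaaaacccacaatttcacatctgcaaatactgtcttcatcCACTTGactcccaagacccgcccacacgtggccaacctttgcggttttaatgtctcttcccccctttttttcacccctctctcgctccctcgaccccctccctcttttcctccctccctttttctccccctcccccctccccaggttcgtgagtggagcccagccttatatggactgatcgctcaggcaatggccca
Nkx6-2: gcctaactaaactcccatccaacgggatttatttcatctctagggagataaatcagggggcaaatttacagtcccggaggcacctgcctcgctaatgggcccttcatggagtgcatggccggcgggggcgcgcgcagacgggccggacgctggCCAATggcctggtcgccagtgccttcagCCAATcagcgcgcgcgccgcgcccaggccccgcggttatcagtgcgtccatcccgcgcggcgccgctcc
Both strands of all 7 windows were searched for 5 motifs. The core of the CTCF motif was in 0 of the 7 windows and in 2.93% of 32851 RefSeq windows of this length. CAAGTG or CACTTG was in the windows of Nkx1-2 and Nkx2-2 and in 11.6% of all, and CCAAT or ATTGG in those of Nkx1-2 and Nkx6-2 and in 33.8% of all. Neither TATAAA or TTTATA (12.4% of all windows) nor the GLI sequence GACCACCCA or TGGGTGGTC (0.225%) was in any of the 7. These letters describe the windows only, and no binding was measured here. The GC content was 65.2% for Nkx6-1 and Nkx6-2 and 56.4% for Nkx2-2, against a median of 52.4% over all windows.

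The 7 genes differed widely in how many loops they held. Nkx6-1, which specifies motor neuron progenitors and, outside the nervous system, pancreatic beta cells, held 36 MAPS loops in control ESCs, 16 in auxin ESCs, 49 in control NPCs and 24 in auxin NPCs. In every MAPS list its bin had more loops than at least 98.6% of the start-site bins of protein-coding genes with any loop. Nkx2-2, needed for the most ventral neuronal progenitors and for endocrine pancreas, held 26, 10, 32 and 8 in the same order. Nkx2-1, a regulator of ventral forebrain, thyroid and lung, held 14, 11, 27 and 12. Nkx6-2, which overlaps in function with Nkx6-1, held 16, 18, 8 and 3. It was the only one of these 4 genes with more loops in control ESCs than in control NPCs.

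The other 3 genes held few loops. Nkx2-9, a relative of Nkx2-2 expressed beside the floor plate, had 5 MAPS loops in control ESCs, 3 in auxin ESCs, 13 in control NPCs and 2 in auxin NPCs. Nkx2-4, a relative of Nkx2-1 expressed in the hypothalamus, had 2, 3, 4 and 1. Nkx1-2, a gene of the caudal epiblast from which spinal cord and paraxial mesoderm arise, had 5, 2, 0 and 1. FitHiChIP, which also reaches beyond the 1000 kb limit of the MAPS lists, listed 19, 7, 35 and 14 loops for Nkx6-1 and 7, 10, 3 and 2 for Nkx6-2, in the same order of conditions. It listed 16, 9, 14 and 6 for Nkx2-2, 10, 8, 10 and 8 for Nkx2-1 and 5, 5, 4 and 1 for Nkx2-9. For Nkx2-4 it had 1, 3, 3 and 3, and for Nkx1-2 3, 4, 2 and 2. For Nkx2-2, Nkx2-1 and Nkx2-9 the higher count in control NPCs was thus in the MAPS lists and not in the FitHiChIP lists.

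**Figure D1:**
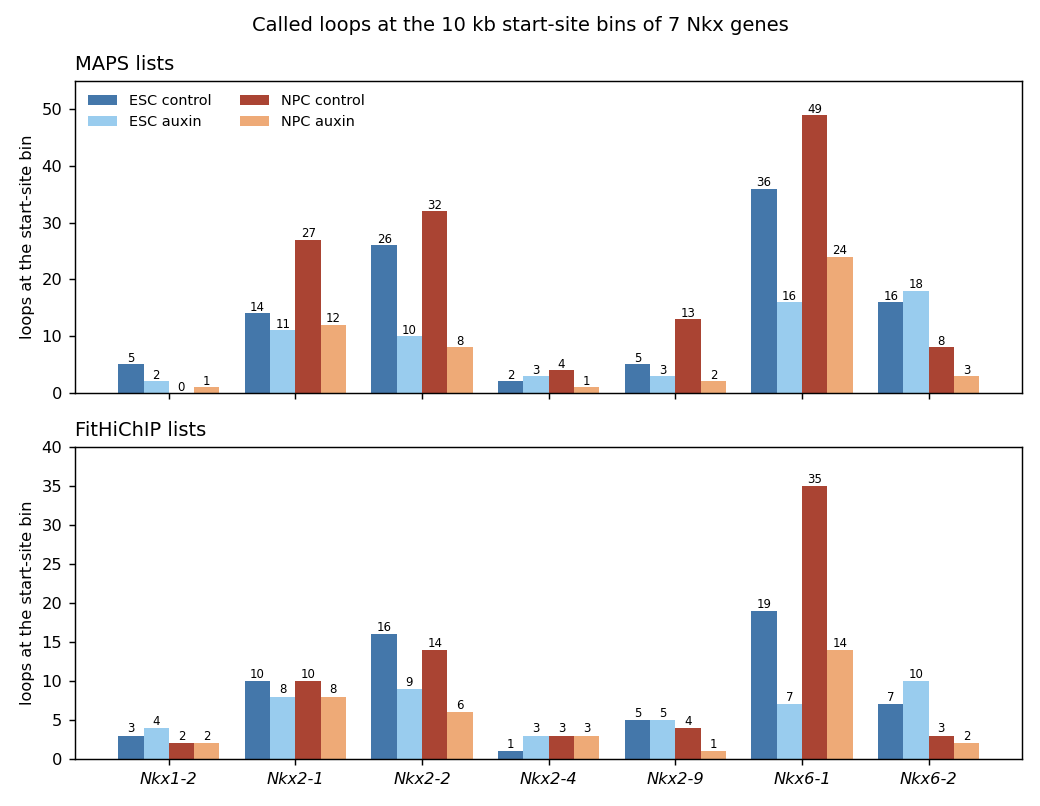
Number of called loops (y axis) at the 10 kb start-site bin of each of the 7 genes (x axis), with a bar per condition, in the MAPS lists and the FitHiChIP lists. Nkx6-1 held the most loops of the 7 in control ESCs and control NPCs of both callers, and Nkx6-2 was above its control in auxin ESCs and far lower in both NPC lists.

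Loops of Nkx6-1 lay almost entirely on one side of the gene. In control ESCs all 36 MAPS partners were on its downstream side, 18 of them within 600 kb and 18 between 600 and 1000 kb. Control NPCs had 28 and 21 in these zones. With auxin the nearer zone held 4 loops in ESCs and 2 in NPCs, and the farther zone held 7 in ESCs and 22 in NPCs. In the MAPS lists of NPCs the near loops were thus few with auxin while the far ones were about as many as without it, and in ESCs both zones held fewer. The 600 kb border was chosen after these positions had been seen. FitHiChIP listed 3, 0, 14 and 0 loops in the nearer zone and 16, 5, 20 and 13 in the farther one, so by this caller the far loops of NPCs were fewer with auxin as well.

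The strongest near contact of Nkx6-1 was with the bin 300 kb downstream (101360001 to 101370000), which holds neither a protein-coding start site nor an H3K4me3 peak. It had 40 MAPS contacts in control ESCs, 24 in auxin ESCs and 83 in control NPCs and was not listed in auxin NPCs. Centred on the median change of all pairs shared by the lists, the count in control NPCs was above that in control ESCs by 0.86 on the log2 scale (0.30 to 1.44). Next to it, 290 kb downstream, 22 contacts were listed in control ESCs and 54 in control NPCs, and none in either auxin list. Both bins had their highest counts in control NPCs, and neither was listed in auxin NPCs.

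The far partners of Nkx6-1 included the start-site bin of Gpat3, a glycerol-3-phosphate acyltransferase gene, 820 kb downstream at 100840001 to 100850000. This pair was listed in all 4 conditions, with 44, 34, 49 and 30 MAPS contacts and 42, 33, 50 and 33 in the FitHiChIP lists. Its centred change with auxin was -0.27 (-0.96 to 0.41) in ESCs and -0.64 (-1.34 to 0.05) in NPCs, both within counting error. The bin of Abraxas1, which encodes a subunit of a BRCA1-containing deubiquitinase complex, 840 kb downstream, was a MAPS partner in control NPCs (31 contacts) and auxin NPCs (26) only. A bin 740 kb downstream without a start site or peak had 23, 30, 45 and 41 contacts and was likewise listed throughout. A partner 670 kb downstream had 35 contacts in control ESCs, 42 in control NPCs and 31 in auxin NPCs and was not listed in auxin ESCs.

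On the upstream side of Nkx6-1 only auxin ESCs had MAPS loops. They joined the gene to bins 160, 170 and 180 kb upstream with 51, 25 and 43 contacts, and to bins 400 and 410 kb upstream with 24 and 36. FitHiChIP listed the last 2 of these in auxin ESCs, with 24 and 32 contacts, and no upstream loop in the other lists.

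**Figure D2:**
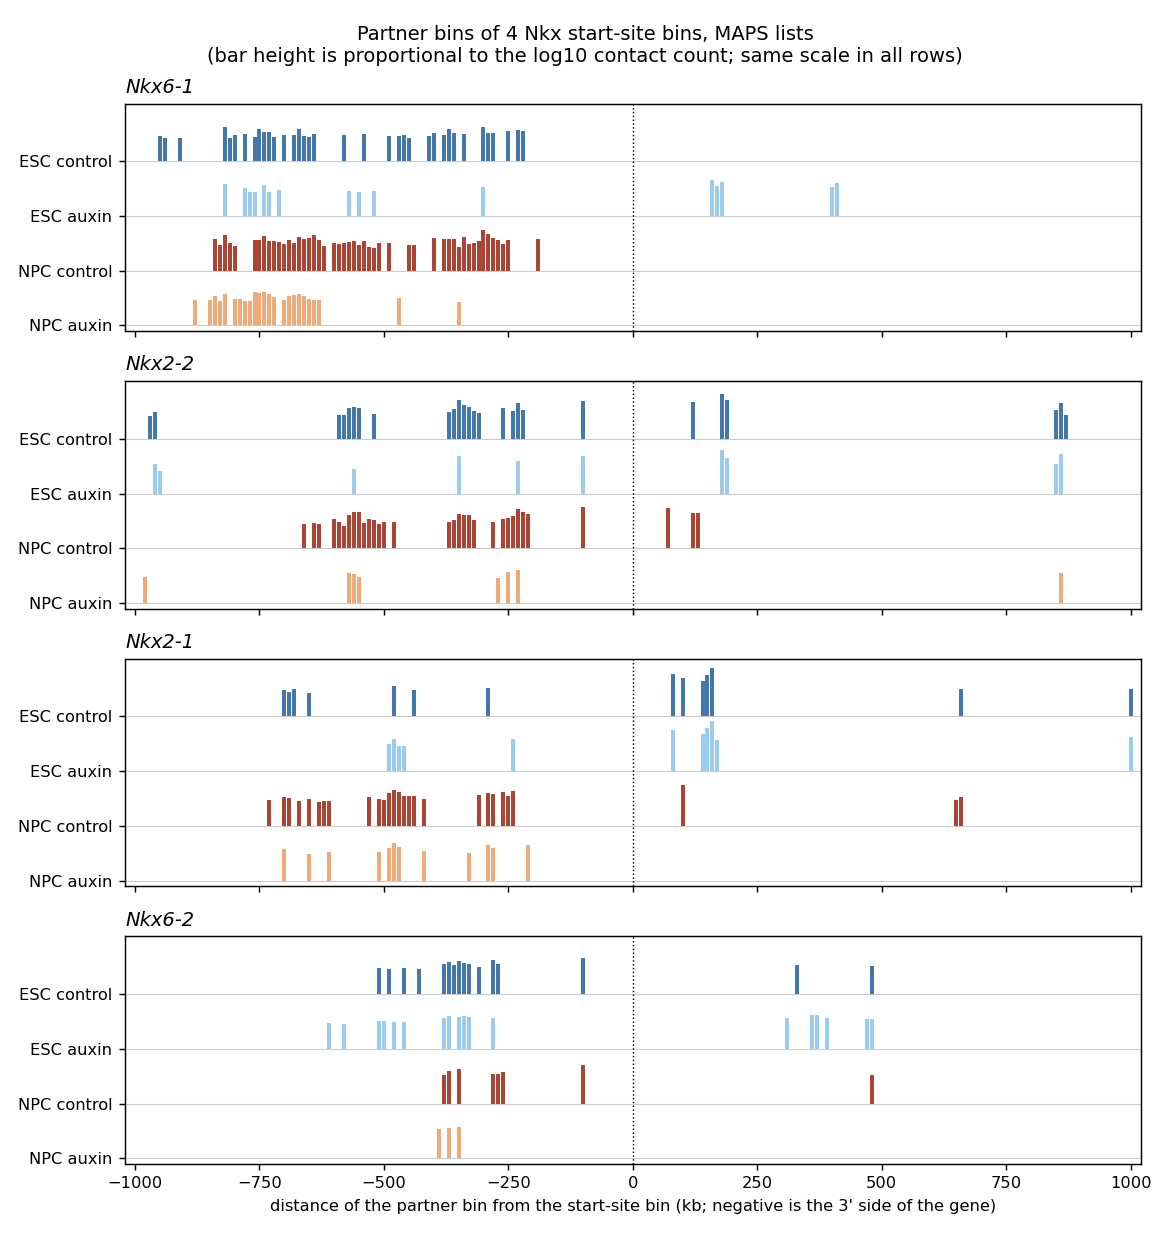
Partner bins of 4 Nkx start-site bins in the MAPS lists, with distance from the gene's bin on the x axis (kb, negative on the downstream side) and 1 line per condition. Bar height is proportional to the log10 contact count. For Nkx6-1 the bars within 600 kb downstream thin out in both auxin lists, those from 600 to 1000 kb remain dense in auxin NPCs, and upstream bars appear in auxin ESCs alone.

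Nkx2-2 also had fewer listed loops with auxin on its downstream side within 600 kb, where MAPS had 18 in control ESCs, 4 in auxin ESCs, 25 in control NPCs and 6 in auxin NPCs. A bin 560 kb downstream (146620001 to 146630000) had 31, 14, 52 and 24 MAPS contacts in these conditions. Its centred log2 change with auxin was -1.04 (-2.07 to -0.09) in ESCs and -1.05 (-1.81 to -0.32) in NPCs. For a bin 230 kb downstream the 4 counts were 52, 35, 73 and 37, with a centred change of -0.47 (-1.13 to 0.18) in ESCs and -0.91 (-1.52 to -0.32) in NPCs. The start-site bin of Kiz, a centrosomal protein gene, 330 kb downstream, was listed in both controls, with 33 and 38 contacts, and in neither auxin list. These partners were chosen after their values were seen, and not all downstream partners had lower counts with auxin. A bin 350 kb downstream had 68 MAPS contacts in control ESCs and 59 in auxin ESCs, a centred change of -0.10 (-0.63 to 0.43), with 42 in control NPCs and no entry in auxin NPCs. A bin 250 kb downstream had 29 in control NPCs and 29 in auxin NPCs, a centred change of 0.07 (-0.72 to 0.86).

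Upstream, Nkx2-2 contacted 2 other developmental regulators. Pax1, a paired-box gene of the sclerotome and pharyngeal pouches, 180 kb away at 147360001 to 147370000, had 131 MAPS contacts in control ESCs and 122 in auxin ESCs, a centred change of 0.00 (-0.36 to 0.37). The pair was not listed in either NPC list by either caller. Foxa2, the forkhead gene of floor plate and endoderm, 860 kb away at 148040001 to 148050000, had 48 contacts in control ESCs, 73 in auxin ESCs and 26 in auxin NPCs, and was not listed in control NPCs. The centred change with auxin in ESCs was 0.71 (0.17 to 1.27), and 0.60 (0.04 to 1.16) by FitHiChIP. Between the auxin lists NPCs were lower by a centred -1.73 (-2.44 to -1.07).

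Nkx2-4 is itself a partner of Nkx2-2, and here the callers parted. MAPS listed the pair with 60 contacts in control ESCs, 59 in auxin ESCs and 92 in control NPCs and did not list it in auxin NPCs, whereas FitHiChIP listed all 4 conditions, with 57, 59, 111 and 126. Absence from the MAPS list of auxin NPCs was therefore no sign of few contacts. Apart from Nkx2-2, the gene partners of Nkx2-4 were Pax1 in auxin ESCs (23 MAPS contacts) and Foxa2, 960 kb upstream, in auxin NPCs (18 MAPS and 17 FitHiChIP contacts).

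Nkx2-1 and Nkx2-9 shared the partners Pax9, a paired-box gene of pharyngeal pouches, teeth and sclerotome, and Foxa1, a forkhead gene of endoderm and ventral midbrain. Nkx2-1 to Pax9, 160 kb upstream at 56690001 to 56700000, was the pair with the most contacts of any listed here: 209 MAPS contacts in control ESCs and 230 in auxin ESCs, with a centred change of 0.24 (-0.03 to 0.52). Nkx2-1 to Nkx2-9 had 108 contacts in control ESCs and 92 in auxin ESCs. Nkx2-9 to Pax9, 80 kb apart, was in the FitHiChIP lists alone, with 119 and 132. None of these 3 pairs was listed in control NPCs or auxin NPCs by either caller.

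The Foxa1 bin (57540001 to 57550000) lies 1010 kb upstream of Nkx2-1, past the MAPS limit. FitHiChIP gave this pair 31 contacts in control ESCs, 51 in auxin ESCs, 22 in control NPCs and 45 in auxin NPCs. The centred change with auxin was 0.72 (0.05 to 1.41) in ESCs and 1.03 (0.27 to 1.84) in NPCs. Nkx2-9 to Foxa1, 930 kb apart, had 17 MAPS contacts in control ESCs and 35 in auxin ESCs, a centred change of 1.15 (0.27 to 2.08), and no MAPS entry in NPCs. By FitHiChIP this pair had 16, 34 and 23 contacts in control ESCs, auxin ESCs and auxin NPCs and was not listed in control NPCs. The pairs of Nkx2-1 and Nkx2-9 with Foxa1 and of Nkx2-2 with Foxa2 thus had higher counts with auxin in ESCs and were listed in auxin NPCs by FitHiChIP. The pair of Nkx2-4 with Foxa2 was in neither ESC list.

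**Figure D3:**
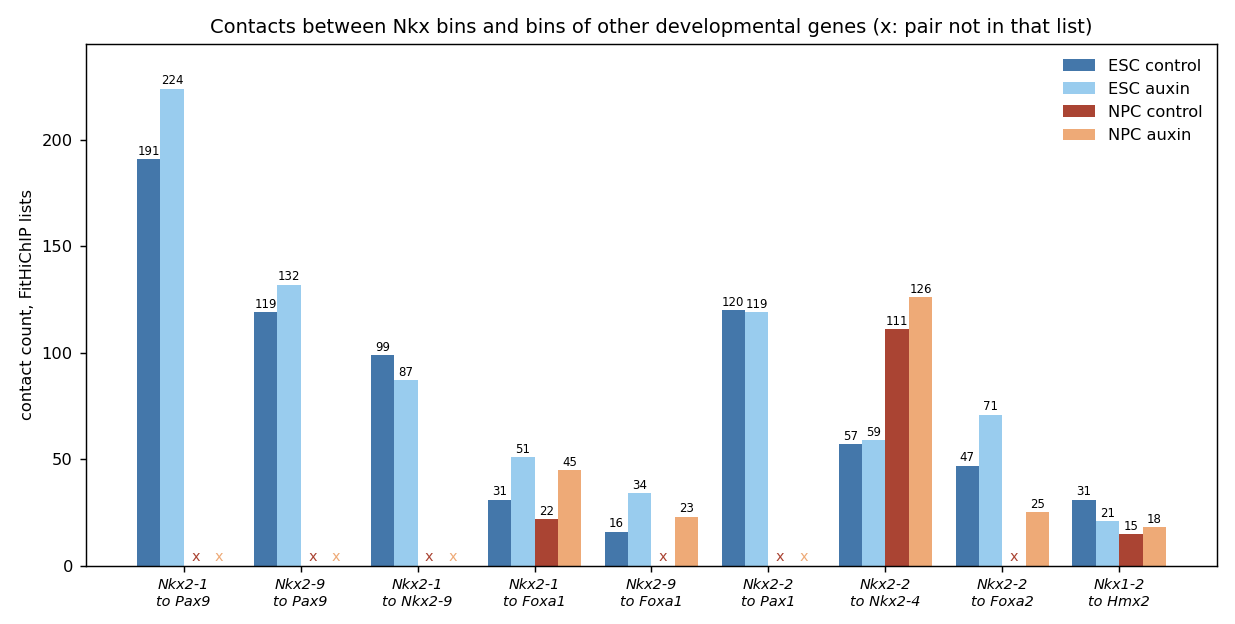
FitHiChIP contact counts (y axis) for pairs between Nkx bins and bins of other developmental genes (x axis), with a bar per condition. A cross stands for a pair absent from that list. Pairs with Pax9 and Pax1 are listed in both ESC conditions only, while the pairs with Foxa1 and Foxa2 are higher in auxin ESCs than in control ESCs.

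Reads over the Pax9 and Pax1 bins, not scaled for depth, were more numerous in NPCs, where their pairs with Nkx bins were not listed. Both callers give an expected count for each pair, and the part of coverage in these absences was not tested. Reads covering the Pax9 bin numbered 9473 in control ESCs, 10043 in auxin ESCs, 17596 in control NPCs and 18698 in auxin NPCs, and those over the Pax1 bin 4621, 5044, 7093 and 7997. Both bins, like those of the 7 Nkx genes, were marked as holding an H3K4me3 peak in both cell types. Reads over the Foxa1 bin were 9852 and 9871 in the ESC lists and 24538 and 24719 in the NPC lists. Without scaling for depth, these Foxa1 reads were nearly equal with and without auxin. The auxin NPC list held more total contacts than the control NPC list, 59961568 against 52337421. The Foxa2 bin had 6801, 6841, 14024 and 14086.

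On their downstream sides both genes held more MAPS loops in control NPCs than in control ESCs. Nkx2-1 had 16 MAPS loops within 600 kb downstream in control NPCs, against 3 in control ESCs, 5 in auxin ESCs and 9 in auxin NPCs. Its leading partner there, a bin 480 kb away (56050001 to 56060000) with no start site and no peak, had 29 contacts in control ESCs, 35 in auxin ESCs, 53 in control NPCs and 61 in auxin NPCs. Counts at this bin were thus higher in NPCs and not lower with auxin, with centred changes of 0.38 (-0.37 to 1.14) in ESCs and 0.27 (-0.28 to 0.83) in NPCs. Brms1l, which encodes a subunit of a histone deacetylase complex, 700 kb downstream, had 17, 24 and 32 contacts in control ESCs, control NPCs and auxin NPCs and was not listed in auxin ESCs. Of the 13 loops of Nkx2-9 in control NPCs, 11 lay downstream, and 1 of the 13 was listed again with auxin. FitHiChIP gave Nkx2-9 a pair of downstream loops in each control list, so the difference was in the MAPS lists alone for this gene. Both genes contacted the start-site bin of Slc25a21, a mitochondrial carrier gene on their upstream side, in the control lists alone, with 19 and 23 MAPS contacts for Nkx2-1 and 16 and 38 for Nkx2-9.

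Of the downstream partners of Nkx6-2, those 350 and 370 kb away were listed in every condition. The bin of Lrrc27 and Stk32c, the second a kinase gene, had 32, 35, 37 and 29 MAPS contacts, and the bin 350 kb downstream had 36, 33, 42 and 30. The counts of these bins lay close together across the 4 conditions, but those of other downstream partners did not. The MAPS pair with the most contacts, 100 kb downstream, had 50 contacts in control ESCs and 69 in control NPCs and was in neither auxin list, and a bin 280 kb downstream had 42, 29 and 25 and was not listed in auxin NPCs. Upstream, MAPS listed 2 loops in control ESCs, 6 in auxin ESCs, 1 in control NPCs and 0 in auxin NPCs. Among the 6 were Utf1, a chromatin factor of pluripotent cells, 360 kb away with 41 contacts, and Kndc1, a guanine exchange factor gene, 310 kb away with 30, neither of them listed in another condition. Reads over the Utf1 bin were 5144, 5198, 4629 and 5295.

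Nkx1-2 had its most durable contacts beyond the MAPS distance limit. FitHiChIP joined it to the bin of Hmx2, a homeobox gene of inner ear and hypothalamus, 1040 kb downstream, with 31, 21, 15 and 18 contacts. The count in control NPCs was below that in control ESCs by a centred -1.34 (-2.34 to -0.41), and the change with auxin was -0.56 (-1.43 to 0.28) in ESCs and 0.26 (-0.81 to 1.35) in NPCs. The next bin, shared by Hmx2 and Hmx3, had 24 contacts in control ESCs, 19 in auxin ESCs and 16 in auxin NPCs. Of its nearer partners that hold a gene start, Chst15, a sulfotransferase gene 280 kb downstream, had 26 MAPS contacts in control ESCs and 35 in auxin ESCs, and the bin of Abraxas2 and Eef1akmt2, 260 kb upstream, had 33 in auxin ESCs. The 1 MAPS loop of auxin NPCs joined a bin 210 kb upstream without a gene start, with 34 contacts.

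To ask whether the Nkx bins moved with or apart from the lists as a whole, loops per bin were compared after scaling by list length. The relative change is log2 of the loops in one list plus 1 over those in the other plus 1, minus the same log2 ratio of both list totals, and bins with at least 5 loops over both lists were compared. In auxin ESCs against control ESCs, 5 of the 7 genes had fewer loops and 2 had more, where 74.1% and 19.1% of 3438 start-site bins did. The 7 bins together had 102 loops in control ESCs and 61 in auxin ESCs, a relative change of 0.31 (-0.19 to 0.77). Nkx6-2, with 16 and 18 loops, was relatively higher by 1.20 (0.15 to 2.28), and Nkx2-4, with 2 and 3 loops, by 1.45 (-1.50 to 5.21). These were the 2 of 7 that were higher by at least 2-fold relative to the totals, a size that 25.9% of all bins reached, and 0 of 7 were lower by as much (14.2%). The median was 0.45 for the 7 and 0.30 for all bins. By FitHiChIP 6 genes passed, 3 with fewer loops (65.6% of 2337 bins), 2 with more (22.3%) and 1 with as many, and Nkx6-2 was again the 1 gene higher by at least 2-fold (8.60%).

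In auxin NPCs against control NPCs, 6 genes passed the minimum and all 6 had fewer loops, against 75.4% of 4805 bins. Nkx1-2, with 0 and 1 loops, did not pass. The sum over the 7 bins was 132 and 51 loops, a relative change of -0.36 (-0.88 to 0.10). Nkx2-9, with 13 and 2 loops, was the 1 gene of the 6 lower by at least 2-fold relative to the totals, at -1.23 (-4.90 to 0.43), where 15.5% of bins were. Nkx2-2 was at -0.88 (-2.34 to 0.14) and Nkx6-1 at -0.01 (-0.81 to 0.69). No gene of the 6 was relatively higher by 2-fold (18.8% of bins), and the median was -0.25 for the 6 genes and 0.25 for all bins. By FitHiChIP 5 of 6 passing genes had fewer loops (69.2% of 3820 bins) and 0 were lower by at least 2-fold (7.12%).

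In control NPCs against control ESCs, 5 genes had more loops and 2 had fewer, where 69.6% and 23.6% of 5137 bins did. The sum was 102 loops in control ESCs and 132 in control NPCs, a relative change of -0.18 (-0.56 to 0.21). Nkx6-2, with 16 and 8 loops, was at -1.46 (-2.98 to -0.24), and Nkx1-2 had 5 loops in control ESCs and 0 in control NPCs. These 2 of 7 were lower by at least 2-fold (13.4% of bins) and 0 were higher (19.7%). The median was -0.11 for the 7 genes and 0.04 for all bins. In the FitHiChIP lists 6 genes passed, and here 4 had fewer loops (21.2% of 3795 bins) and 1, Nkx6-1, had more (68.3%). Nkx6-2 was the 1 gene lower by at least 2-fold (8.83%).

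In auxin NPCs against auxin ESCs, 5 genes passed the minimum, of which 3 had fewer loops and 2 had more (23.9% and 69.3% of 3138 bins). The sums were 51 loops in auxin NPCs and 61 in auxin ESCs, while the NPC list as a whole was longer, and the relative change of -0.85 (-1.42 to -0.29) lay outside counting error. Nkx6-2, with 18 loops in auxin ESCs and 3 in auxin NPCs, was at -2.84 (-5.58 to -1.40). It was the only gene of the 7 whose interval excluded 0, and the sum was not computed without it. Nkx2-9, with 3 and 2, was the second of the 2 genes lower by at least 2-fold (17.9% of bins), at -1.01 (-4.76 to 1.95), and 0 of the 5 were higher by as much (20.5%). By FitHiChIP all 7 genes passed, with 4 having fewer loops (25.7% of 2374 bins) and 1 more (64.6%), and Nkx6-2 and Nkx2-9 were again the 2 genes lower by at least 2-fold (7.54%). The FitHiChIP sum of -0.45 (-1.14 to 0.21) lay within counting error. The intervals treat neighbouring pairs as independent, although many partners are adjacent bins.

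**Figure D4:**
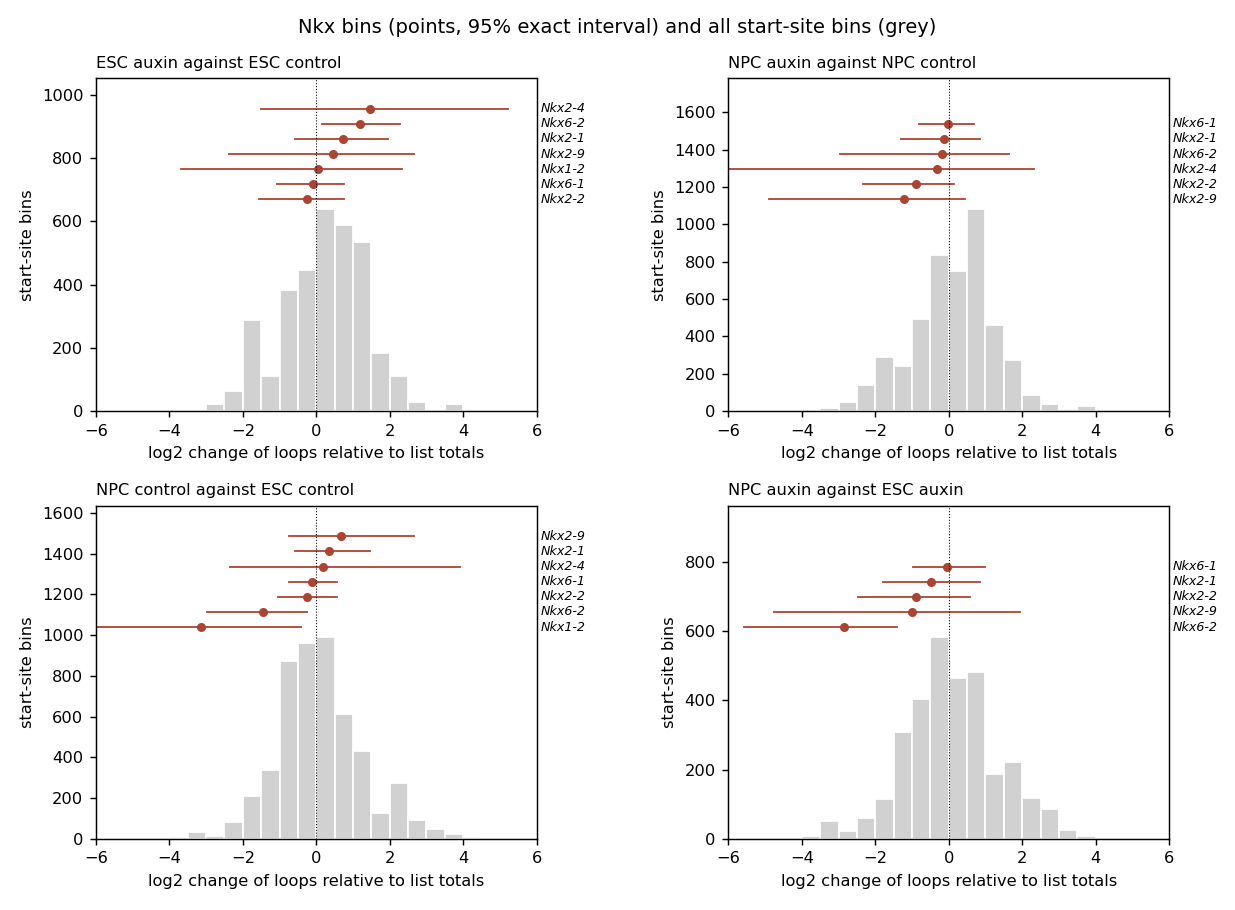
Relative change in MAPS loops (x axis, log2, 0 where a bin moved as its list did) of each Nkx bin that passed the minimum, with exact 95% intervals cut at the axis ends, over the distribution of all start-site bins (grey), for the 4 comparisons. Nkx6-2 lies right of 0 for auxin in ESCs and left of 0 in both comparisons of NPCs with ESCs, and most other intervals span 0.

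Loops of the Nkx bins that had a peak bin at both ends were listed again with auxin in ESCs at a higher share than such loops of the whole list. Of the 102 MAPS loops in control ESCs, 33 were in the same bins in auxin ESCs, or 32.4% (23.4 to 42.3), against 22.9% of the whole list. With a peak at both ends the count was 19 of 30, or 63.3% (43.9 to 80.1), against 32.7% of such loops in the whole list. With a peak at 1 end it was 14 of 72, or 19.4% (11.1 to 30.5), against 19.4%. FitHiChIP gave 25 of 33, or 75.8% (57.7 to 88.9), against 39.5%, and 3 of 26, or 11.5% (2.45 to 30.2), against 47.4%. For Nkx6-1 alone 6 of 36 were listed again.

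In NPCs the auxin list kept 36 of 132 Nkx loops, 27.3% (19.9 to 35.7), near the 27.0% of the whole list. Loops with a peak at both ends were 7 of 20, or 35.0% (15.4 to 59.2), against 39.1%. Between the cell types the order of these classes was the opposite. Of the loops in control ESCs, 62 of 102 were in control NPCs, 60.8% (50.6 to 70.3) against 50.3%. This was 11 of 30 with a peak at both ends, 36.7% (19.9 to 56.1) against 55.4%, and 51 of 72 with a peak at 1 end, 70.8% (58.9 to 81.0) against 48.5%. Where anchors could each differ by 1 bin, 71 of the 102 were listed again, 69.6%, below the 74.3% of the whole list. By FitHiChIP the share in the same bins was 54.2% against 53.5%, so the higher share was in the exact MAPS matches alone. Of the loops in auxin ESCs 14 of 61 were in auxin NPCs, 23.0% (13.2 to 35.5) against 37.8%.

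Each bin pair could be listed in any mix of the 4 conditions. Of 203 distinct Nkx pairs in the MAPS lists, 9 were in all 4 lists, 4.43% against 4.34% of all 137221 pairs. In both controls only there were 33 (16.3%, against 10.2%). Control NPCs only had 51 (25.1%, against 30.2%) and control ESCs only had 21 (10.3%, against 16.7%). Both ESC lists but neither NPC list held 16 pairs, 7.88% against 2.28% of all pairs, among them Nkx2-1 to Pax9 and Nkx2-2 to Pax1. The median distance of Nkx loops was 435 kb in control ESCs, 410 kb in auxin ESCs, 505 kb in control NPCs and 640 kb in auxin NPCs, and that of all loops 230, 240, 260 and 300 kb. The median Nkx loop was thus longer than that of the list in all 4 MAPS lists. By FitHiChIP it was shorter in auxin ESCs, at 475 kb against 500 kb. It was longer in control ESCs (660 against 370 kb), control NPCs (575 against 390 kb) and auxin NPCs (740 against 470 kb).

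Summed over the 7 bins, MAPS loops lay more on the downstream side than those of all start-site bins, but not at every gene. In control ESCs Nkx2-4 had 0 MAPS loops downstream and 2 upstream, and Nkx2-9 had 1 and 4. Counting each end in an Nkx bin, the upstream side held 23 of 104 in control ESCs, 22.1% (14.6 to 31.3), and 27 of 63 in auxin ESCs, 42.9% (30.5 to 56.0). It held 10 of 133 in control NPCs, 7.52% (3.66 to 13.4), and 4 of 51 in auxin NPCs, 7.84% (2.18 to 18.9). Over all start-site bins these shares were 48.9%, 53.5%, 48.3% and 53.5%. FitHiChIP gave 31.1%, 56.5%, 9.86% and 22.2% for the Nkx bins, against 49.3%, 52.6%, 49.6% and 54.4% for all bins. By this caller auxin ESCs thus had no downstream lean. Partners of 1 gene lie next to each other, so the 7 genes rather than the loops are the units behind these shares, and Nkx6-1 and Nkx2-2 hold most of the downstream loops in both control lists.

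Reads over the Nkx bins themselves changed little with auxin and more between the cell types. The Nkx6-1 bin was covered by 6589 reads in control ESCs, 6714 in auxin ESCs, 10692 in control NPCs and 11599 in auxin NPCs, and the Nkx2-4 bin, the least covered in ESCs, by 2025, 2232, 5127 and 5832. Scaled by the total contacts of each list, the change with auxin ran from -0.10 to 0.12 on the log2 scale over the 7 bins in ESCs and from -0.08 to 0.03 in NPCs. Control NPCs were above control ESCs for all 7, from 0.28 for Nkx6-2 to 1.20 for Nkx2-4, with a median of 0.56 against 0.44 over 6055 start-site bins. At least 1.5-fold more reads were found for 3 of the 7 (Nkx2-1, Nkx2-4 and Nkx2-9) and 34.6% of all bins. Between the auxin lists the same 3 genes and 20.1% of bins did, and with auxin 0 of the 7 and 0% of all bins did in either cell type. The part that coverage has in the loop counts was not tested.

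**Figure D5:**
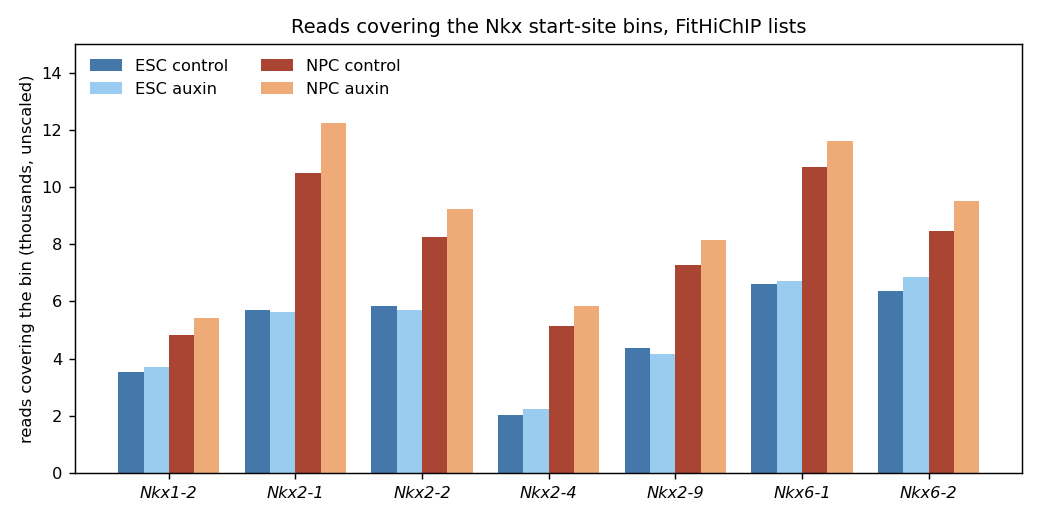
Reads covering each Nkx start-site bin (y axis, in units of 1000) in the FitHiChIP lists, with a bar per gene and condition and no scaling for depth. The control and auxin bars of a cell type are close for every gene, and the NPC bars are higher than the ESC bars for all 7.

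The mark did not tell the cell types apart at the marker genes used to check the labels. Of 8 stem-cell marker genes that could be placed, 7 had a peak bin in the ESC lists, all but Esrrb. In the NPC lists 6 had one, all but Tfcp2l1 and Tdgf1. Peaks are marked for the ends of listed loops only, so a gene without one may lack a listed loop rather than a peak. Of 8 placed neural precursor genes 7 had one in both, Fabp7 being the exception, and the 5 placed mesoderm and endoderm genes had one in both. Of 5 neuron genes 2 had one in the ESC lists and 3 in the NPC lists, and the 2 placed neural crest genes had one in both. H3K4me3 also marks silent developmental promoters in ESCs, and no RNA was analysed here, so these lists do not show whether an Nkx gene was expressed.

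Related gene groups give the setting of these values. Of 10 other NK homeobox genes 7 could be placed, with 36 MAPS loops in control ESCs and 17 in auxin ESCs, and 62 in control NPCs and 14 in auxin NPCs. Nkx3-2, a gene of sclerotome and cartilage, held 2, 0, 17 and 0. All 5 of the group that passed the minimum in ESCs and all 4 in NPCs had fewer loops with auxin, with median relative changes of 0.34 and -1.09. Of 19 genes of the ventral neural tube and the Hedgehog pathway 13 could be placed, with 82 and 54 loops in ESCs and 194 and 133 in NPCs. In that group 6 of 8 passing genes in ESCs and 7 of 9 in NPCs had fewer loops with auxin, with medians of 0.55 and 0.13. Over all start-site bins 74.1% had fewer loops with auxin in ESCs and 75.4% in NPCs, with medians of 0.30 and 0.25. The Hedgehog receptor gene Ptch1 had 1 MAPS loop in control ESCs, 4 in auxin ESCs, 36 in control NPCs and 9 in auxin NPCs, and the effector gene Gli3 had 0, 0, 30 and 16. For control NPCs against control ESCs these were the 2 highest of the group, with relative changes of 3.66 and 4.41. The 2 lowest of the 10 passing genes were Olig2 (-1.03) and Sufu (-0.55). The median of the 10 was -0.05, with 4 higher and 1 lower by at least 2-fold. For 14 placed genes of dorsal and intermediate domains the sums were 113 and 83 in ESCs and 215 and 106 in NPCs, with fewer loops in 8 of 11 and 10 of 11 passing genes.

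Bins like each gene were sought among start-site bins with as many loops to within 1.5-fold. These were 91 bins for Nkx6-1, 303 for Nkx2-2, 466 for Nkx2-1 and 952 for Nkx6-2. Likeness was taken on loops per list, as shares of the list totals over the 4 MAPS lists. Closest to Nkx6-1 were Hoxb4 (30, 15, 39 and 24 loops), Sgk1 (39, 12, 47 and 28) and the bin of Hoxa5 and Hoxa6 (31, 19, 43 and 30). Closest to Nkx2-2 were Ntrk2, Eif2ak1 and Bod1, to Nkx2-1 Prrxl1, Hoxd8 and Npm3, and to Nkx6-2 Uncx (12, 17, 8 and 3), Tlx1 and Gm10013. The likeness rests on 4 counts per bin and was not tested.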

How the data were processed

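H3K4me3 PLAC-seq of 8 samples in 4 groups (2 per group by the titles) was read from 8 deposited lists of bin pairs at 10 kb, 1 per group and caller. The labels name each list on 1 sample of a group, and do not say whether the samples of a group were merged for calling. BWA, Picard and mm10 appear in the submitters' processing notes. Their versions, and those of MAPS and FitHiChIP, are not given in the sources used here.

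Per the file headers, deposited MAPS lines hold a contact count, an expected count (used here as a background signal), the ratio of count to background, an FDR (a q-value, under 0.01 in every list) and whether each anchor holds a peak. Deposited FitHiChIP lines hold a contact count, the reads covering each anchor (a count), peak marks, a q-value, the expected signal and that expectation as a fraction of all contacts. Dividing the expected signal by that deposited fraction gave the total contacts of a list, 47519917, 48307867, 52337421 and 59961568 in control ESCs, auxin ESCs, control NPCs and auxin NPCs. The MAPS lists cover 20 to 1000 kb on 19 chromosomes and the FitHiChIP lists 20 to 2000 kb on 21. MAPS counts were at least 12 and ratios at least 2.00. The lists hold only pairs past these thresholds, so a depth floor cannot be given.

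MAPS lists were the main ones. Start sites and strands came from RefSeq (GRCm38.p6), with 17368 bins of protein-coding genes. A gene absent from that table was not placed. Relative changes used a pseudocount of 1, a minimum of 5 loops over both lists, and exact binomial intervals, with Clopper-Pearson intervals for shares, all at 95%. Contact counts at shared pairs were centred on the median of all shared pairs of the lists, and distances run between bin starts. The 4 comparisons share lists. The 7 genes were all printed. Partner genes were named where the partner bin holds a protein-coding start site and the pair is among the 3 strongest of that gene or is listed in at least 3 conditions, and other partners named were chosen after their values were seen. The members and the gene lists were chosen with earlier results of these data known. The calculations were checked on simulated data. Tools were Python 3.11.15, pandas 2.3.3, numpy 2.4.6, scipy 1.17.1 and matplotlib 3.10.9. Alternatives were the FitHiChIP lists, wider bins, a stricter FDR, no scaling, a pseudocount of 0.5, merged neighbouring pairs and a common distance range.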

Additional observations from a re-analysis of the deposited data

Results flagged for a closer look

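For 3 genes the MAPS loop count moved one way with auxin in ESCs and the other way in NPCs. The difference between the cell types was not tested, with 1 list per condition. Nkx1-2 had 5 loops in control ESCs and 2 in auxin ESCs, and 0 in control NPCs and 1 in auxin NPCs, and its relative change in NPCs minus that in ESCs was 1.95 on the log2 scale. Relative to the list totals, however, both changes of Nkx1-2 were upward, at 0.04 in ESCs and 1.99 in NPCs. The NPC value did not pass the minimum of 5 loops. Nkx2-4 had 2 and 3 loops in ESCs and 4 and 1 in NPCs, a difference of -1.78. Nkx6-2 had 16 and 18 loops in ESCs and 8 and 3 in NPCs, a difference of -1.38. The FitHiChIP lists did not show opposite directions for Nkx1-2, with 3 and 4 loops in ESCs and 2 and 2 in NPCs, or for Nkx2-4, with 1 and 3 and then 3 and 3. For Nkx6-2 they had 7 and 10 loops in ESCs and 3 and 2 in NPCs, but relative to the list totals both changes were upward, at 1.02 and 0.44. The counts of Nkx1-2 and Nkx2-4 are so small that a single loop sets the direction in one of the cell types.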

How the results depend on the processing

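Of 36 alternative values for the summed loops and the shares listed again, 26 stayed within counting error of the reported value and 10 moved beyond it, and all 56 values of single genes stayed within it. Intervals of genes with few loops are wide, as for Nkx2-4 with auxin in NPCs (-6.63 to 2.33). Staying within them therefore says little about single genes. Without scaling by list totals the summed change was -0.73 for auxin in ESCs, -1.35 for auxin in NPCs, 0.37 for control NPCs against control ESCs and -0.25 for auxin NPCs against auxin ESCs, so the sign turned for auxin in ESCs and for the control comparison. This follows from the unequal list lengths. With an FDR under 0.0001 the change in auxin ESCs was 0.99 (46 and 35 loops), and with adjacent pairs merged control NPCs against control ESCs was -0.64 (54 and 48 intervals). Merging also turned the sign of the change for auxin in NPCs, from -0.36 to 0.08 (48 and 28 intervals), within counting error. The stricter FDR turned that of the control comparison, from -0.18 to 0.04, also within it. Changes of single genes turned sign in places too, within counting error, most often in the FitHiChIP lists, as for Nkx2-9 between the controls (0.68 and -0.69). The causes of these were not tested. Where anchors could each differ by 1 bin, the shares listed again were higher, since more pairs can match. For auxin in ESCs the share was 57.8%, against 46.1% of the whole list. For auxin in NPCs it was 43.9% (35.3 to 52.8), below the share of the whole list but within counting error of it. For auxin NPCs against auxin ESCs it was 41.0%, against 62.4% of the whole list. In the same bins of the FitHiChIP lists the share for auxin in ESCs was 47.5%, against 43.3% of the whole list. No paired analysis was possible because each group has 1 list per caller. The main limits are the absence of replicates, the thresholds of the lists, which hide weaker contacts, and bins of 10 kb, which merge neighbouring start sites.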
